A study of Mus musculus with 26 samples.

Results

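The genes described here are 289 mouse zinc finger protein genes whose symbol is Zfp followed by a number. They were chosen by their level: a mean of 2 CPM (counts-per-million, a gene's read count scaled to the total count of its library) in at least 1 of 8 groups of RNA libraries. They are 289 of the 374 genes with such a symbol among 48795 gene entries. Of the remaining symbols, 71 had counts but stayed under that level and 14 had no count in any library. Just inside the rule were Zfp433 and Zfp105, both with a highest group mean of 2.01 CPM, and just outside were Zfp974 and Zfp599, both with 1.91 CPM.

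The study removed Lsd1, the histone demethylase encoded by Kdm1a, from 2 models of acute myeloid leukaemia in mouse cells and added all-trans retinoic acid (ATRA), a vitamin A derivative that differentiates myeloid cells. H9M cells are myeloid progenitors transformed by Hoxa9 and Meis1, and MN1 cells are the model driven by MN1. Each model gave 3 libraries of untreated controls, controls with 1 µM ATRA, knockouts without ATRA and knockouts with 1 µM ATRA, 24 libraries in all. Deletion was induced with 0.1 µM 4-hydroxytamoxifen for 72 hours. All 24 RNA samples carry the same labels for background, C57BL/6, and for strain, CreERT2-;LSD1TM1Schuele, and all cells grew in medium with serum, IL3, IL6 and stem cell factor. The knockouts carry the CreERT2- label as well, and the labels do not explain how that goes with induced deletion. The labels do not say whether controls received 4-hydroxytamoxifen. Without the drug in controls, its effect and the loss of Lsd1 cannot be told apart in any knockout comparison below. Nor do they say whether the 3 libraries of a group were separate cultures, so p-values below measure the spread between these libraries, which may be technical. The column names of the count table also carry a tag that goes with the model and that the labels do not explain, so whatever it marks and the model cannot be told apart. A pair of H3K4me2 chromatin libraries, labelled GFI1-WT and GFI-KD, came from untreated lineage-negative bone marrow cells of C57BL/6 mice.

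Most numbered Zfp genes encode proteins with tandem C2H2 fingers, small zinc-binding folds that read DNA, and many of these also carry a KRAB domain. KRAB proteins recruit TRIM28, which brings the histone methyltransferase SETDB1, HP1 proteins and other silencing factors to transposable elements, imprinted loci and other targets. KRAB zinc finger genes lie in tandem clusters that grew by duplication. Other Zfp genes have no such domain and bind RNA, act in mRNA decay or serve as transcription cofactors. LSD1 removes methyl groups from histone H3 lysine 4 within the CoREST complex, and in myeloid cells it is brought to DNA by GFI1, itself a zinc finger repressor.

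Library totals ran from 22402558 to 32674685 counts. Kdm1a checked the labels: the 12 control libraries lay between 138 and 203 CPM, H9M knockouts without ATRA between 0.937 and 0.998 CPM, MN1 knockouts without ATRA between 1.28 and 1.58 CPM and MN1 knockouts with ATRA between 1.85 and 2.36 CPM. H9M knockouts with ATRA kept 10.3 to 11.5 CPM, more than any other knockout group. For ATRA in H9M knockouts and for the H9M interaction of knockout and ATRA, ATRA and this larger remainder of Kdm1a cannot be told apart. Progenitor markers (Kit, Cd34, Mpo, Elane, Prtn3, Ctsg) summed to 3288 CPM or more in each library, while B cell markers summed to at most 0.807 CPM and T cell markers to at most 0.153 CPM; Ms4a1, Cd8a and Cdh5 had no count. Markers moved with the knockout, those of progenitors as well as those of mature myeloid cells. The 6 progenitor markers summed to 12562 to 13019 CPM in untreated H9M controls and 15426 to 15632 CPM in H9M knockouts without ATRA. In the same MN1 groups they summed to 4059 to 4201 and 6320 to 6442 CPM. Of the 6, 2 were called higher and 2 lower in H9M, and 4 higher and 1 lower in MN1. The 5 neutrophil markers (Ltf, Camp, S100a8, Mmp8, Cebpe) summed to 75.4 to 80.4 CPM in untreated H9M controls and 1513 to 1807 CPM in H9M knockouts, and to 13.6 to 14.8 and 429 to 468 CPM in the same MN1 groups. The 5 monocyte and macrophage markers (Csf1r, Adgre1, Mpeg1, Ly86, Irf8) summed to 34.6 to 40.5 CPM in untreated H9M controls and 739 to 757 CPM in H9M knockouts, and to 62.4 to 69.3 and 354 to 369 CPM in the same MN1 groups. The 3 megakaryocyte markers summed to 103 to 106 CPM in untreated MN1 controls and 141 to 148 CPM in MN1 knockouts. The part of these markers in the knockout results below was not tested. In bulk RNA, fewer cells of a type and less RNA per cell cannot be told apart.

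The family was broadly present in both models. A mean of 2 CPM was reached in all 8 groups by 246 of the 289 genes, in 1 to 7 groups by 43 and in exactly 1 group by 4. Mean levels over the 24 libraries ran from 1.12 to 308.6 CPM with a median of 11.2 CPM, and 35 genes had 50 CPM or more. The summed level of the 289 genes was 5956 ± 22.5 CPM (SD, n = 3) in untreated H9M controls and 8131 ± 65.9 CPM in untreated MN1 controls. Knockouts without ATRA had 6052 ± 82.3 CPM in H9M and 8155 ± 62.2 CPM in MN1. With ATRA the sums were 5757 ± 190 CPM in H9M controls, 6074 ± 3.5 CPM in H9M knockouts, 8244 ± 142 CPM in MN1 controls and 8569 ± 147 CPM in MN1 knockouts. MN1 libraries thus gave the family a larger share of their counts than H9M libraries in each of the 4 conditions. This gap was not spread evenly over the family. Zfp503, Zfp703 and Zfp521, with levels given below, stood far higher in untreated MN1 controls. Of 277 genes with 2 CPM or more in an untreated control group, 20 were 2-fold or more higher in MN1 and 15 in H9M.

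The family moved in both directions in the knockouts. In H9M cells without ATRA, 62 genes were higher and 53 lower in knockouts, where calls are at an adjusted p under 0.05 from edgeR's quasi-likelihood test with Benjamini-Hochberg adjustment over all 14663 genes tested. Over all genes tested, 26.1% were called higher and 25.4% lower in this comparison. In MN1 cells without ATRA, 72 of the 289 were higher and 46 lower, against 28.7% and 26.3% of all genes tested. With ATRA in both arms, 92 were higher and 37 lower in H9M, against 26.7% and 24.4%, and 80 were higher and 55 lower in MN1, against 28.6% and 28.6%. The share of zinc finger genes called in either direction was 39.8% in H9M and 40.8% in MN1 without ATRA, below the 59.5% and 63.1% of the 11807 genes of any kind that met the same level rule. That rule sets a floor and does not match the levels above it. The part of level in this gap, and in later comparisons with all genes at that level, was not tested. The median log2 fold change of the 289 genes lay between 0.00 and 0.10 in these 4 comparisons.

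**Figure D1:**
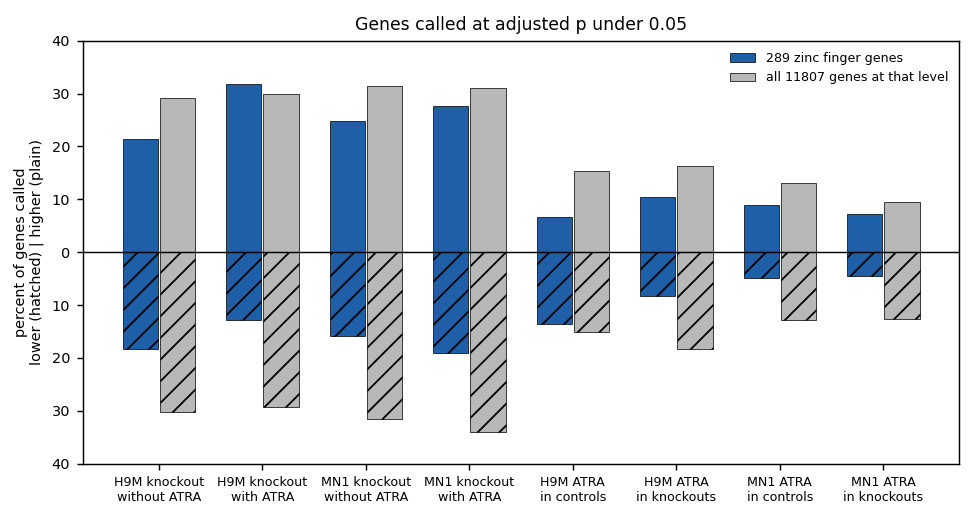
Percent of genes called higher (plain bars, above 0) or lower (hatched bars, below 0) at an adjusted p under 0.05 in each of 8 comparisons, for the 289 zinc finger genes (blue) and for all 11807 genes that met the same level rule (grey). The blue bars are shorter than the grey ones except for genes higher in H9M knockouts with ATRA.

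Large changes went 1 way. Genes called with a change of 2-fold or more numbered 10 higher and 0 lower in H9M knockouts and 13 higher and 0 lower in MN1 knockouts without ATRA, and 10 higher and 0 lower, and 12 higher and 0 lower, with ATRA. Among all genes that met the level rule, 8.04% rose and 1.31% fell by 2-fold or more in H9M knockouts, and 8.74% and 1.06% in MN1 knockouts. With ATRA these shares were 7.64% and 1.3% in H9M, and 8.61% and 1.47% in MN1. Some of these genes, such as Zfp658, Zfp750 and Zfp383, had untreated controls under 2 CPM in both models. They met the level rule through other groups, so their rises are descriptions. Among the 272 zinc finger genes with a mean of 2 CPM or more over the 8 groups, 8 rose by 2-fold or more in H9M and 10 in MN1 without ATRA. With ATRA these counts were 9 and 9, and 0 fell in each case.

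Zfp658 (ENSMUSG00000056592) on chromosome 7 had the largest fold change in H9M among called zinc finger genes with 2 CPM or more in either H9M group and no overlap between their libraries. Its 3 untreated H9M control libraries held 1.85, 1.99 and 1.53 CPM and its 3 knockout libraries 15.7, 15.8 and 17.4 CPM. In MN1 cells the controls held 1.24, 1.23 and 1.47 CPM and the knockouts 7.97, 7.81 and 9.06 CPM. Each knockout library lay far above each control library of its model. The log2 fold change was 3.20 (SE 0.12, adjusted p 2.8e-21, edgeR) in H9M, a 9.17-fold difference, and 2.64 (SE 0.14, adjusted p 1e-17) in MN1, a 6.25-fold difference. With ATRA in both arms it was 2.64 (SE 0.12) in H9M and 2.39 (SE 0.14) in MN1. As said above, Zfp658 met the level rule through groups other than the untreated controls, so these values are descriptions.

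The RefSeq promoter of Zfp658, 250 bases before to 50 after its start at chr7:43562120-43562419 on the plus strand of GRCm38.p6, is shown because that gene had the largest rise under those limits. It holds 19 CG pairs and none of the motifs AGGTCA, GAGGAAGT and CACGTG on either strand, so no base is in capitals.
Zfp658: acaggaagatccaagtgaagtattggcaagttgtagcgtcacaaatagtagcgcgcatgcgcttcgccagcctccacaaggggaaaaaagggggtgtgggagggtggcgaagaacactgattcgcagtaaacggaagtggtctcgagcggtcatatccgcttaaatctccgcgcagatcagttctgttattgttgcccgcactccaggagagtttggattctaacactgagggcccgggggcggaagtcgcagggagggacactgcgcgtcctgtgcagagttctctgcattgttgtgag

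Zfp750 on chromosome 11, a factor of epidermal differentiation, rose from a trace. Untreated H9M controls held 0.385, 0.142 and 0.275 CPM (10, 4 and 7 counts) and knockouts 2.19, 1.88 and 2.38 CPM. Untreated MN1 controls held 0.302, 0.0323 and 0.0983 CPM (8, 1 and 3 counts) and knockouts 2.17, 2.04 and 2.35 CPM. Both models ended near the same low level, with no overlap with their controls. The log2 fold change was 3.02 (SE 0.39, adjusted p 4.3e-09) in H9M and 3.95 (SE 0.50, adjusted p 1.2e-10) in MN1, and the difference between models did not pass the test (0.93, SE 0.63, adjusted p 0.28). Zfp750 met the level rule through groups other than the untreated controls, so these values describe it only.

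Zfp365, known for maintaining genome stability at replication, was measured almost wholly in MN1 cells. Its MN1 controls held 3.36, 3.10 and 2.78 CPM and its MN1 knockouts 18.5, 18.6 and 17.5 CPM. The log2 fold change was 2.56 (SE 0.11, adjusted p 3.5e-18), and 3.03 (SE 0.12) with ATRA. In H9M cells it stayed at the floor, with 0 counts in the 3 untreated controls and 7 counts over the 3 knockouts. Against a floor of 3 counts over the group this was a ratio of 2.48, with a lower 95% limit of 1.53. With ATRA the H9M counts were 1 in controls and 4 in knockouts, a ratio with a 95% interval from 0.383 to 190.

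Zfp383 and Zfp287 followed the same course in both models. Zfp383 on chromosome 7 held 0.964, 1.03 and 0.706 CPM in H9M controls against 3.57, 2.87 and 3.74 CPM in knockouts, and 1.43, 1.10 and 1.11 CPM against 5.45, 4.85 and 5.78 CPM in MN1. Its log2 fold changes were 1.92 (SE 0.24) and 2.14 (SE 0.21). Zfp287 on chromosome 11 held 4.63, 4.93 and 5.46 CPM against 12, 11.9 and 12.2 CPM in H9M, and 2.38, 2.39 and 2.00 CPM against 7.89, 6.53 and 7.28 CPM in MN1. For both genes no knockout library overlapped a control. The log2 fold changes of Zfp287 were 1.28 (SE 0.10, adjusted p 6.5e-12) and 1.68 (SE 0.13, adjusted p 9.8e-13).

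Zfp36 encodes tristetraprolin, which binds AU-rich elements and speeds the decay of cytokine mRNAs. Untreated H9M controls held 19.5, 20.3 and 17.1 CPM and knockouts 103, 73.1 and 89.1 CPM. MN1 controls held 16.4, 18.3 and 16.2 CPM and knockouts 52.4, 41.4 and 29.8 CPM. The controls of both models were close together, and the knockouts were high but more scattered than for the genes above. The log2 fold change was 2.23 (SE 0.13, adjusted p 1.7e-15) in H9M and 1.27 (SE 0.13, adjusted p 1.7e-09) in MN1, and it was smaller in MN1 by 0.96 (SE 0.19, adjusted p 0.00016 for the difference).

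Zfp467, known for its part in the choice between fat and bone fates of marrow stroma, differed more between the models. It held 1.93, 2.31 and 1.81 CPM in H9M controls and 8.35, 8.82 and 7.98 CPM in knockouts, a log2 fold change of 2.06 (SE 0.14, adjusted p 4.2e-14). In MN1 it started higher, at 7.17, 6.56 and 5.08 CPM, and reached 9.04, 8.05 and 9.48 CPM, a log2 fold change of 0.50 (SE 0.11, adjusted p 0.00016). The difference of the effects, MN1 minus H9M, was −1.56 (SE 0.18, adjusted p 2.2e-08). Knockouts of both models thus stood at about the same level, since the H9M mean was 8.38 ± 0.418 CPM and the MN1 mean 8.86 ± 0.730 CPM.

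**Figure D2:**
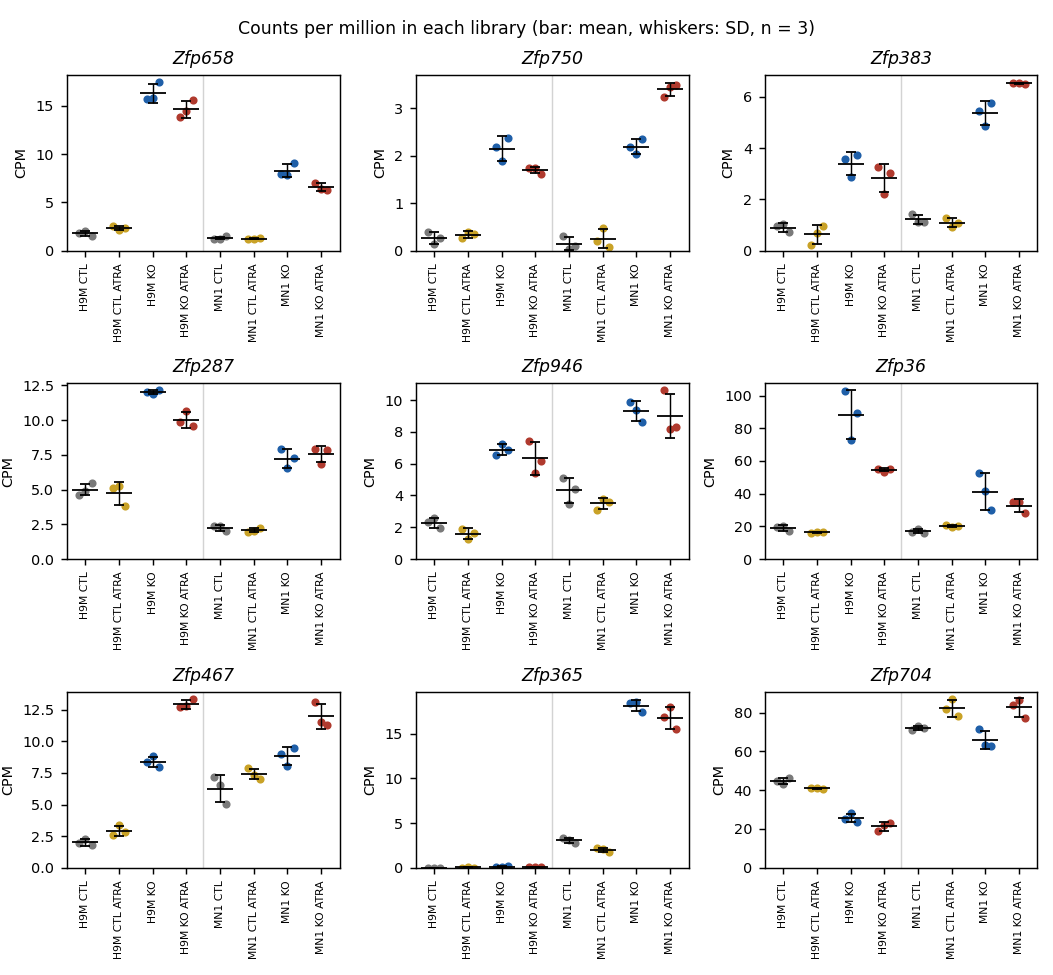
CPM in each of the 24 libraries for 9 zinc finger genes, by group (x axis) with points for libraries, a bar for the mean and whiskers for the SD (n = 3); each panel starts at 0. Zfp658 stands at 15.7 to 17.4 CPM in H9M knockouts against 1.53 to 1.99 CPM in controls, Zfp365 is near 0 throughout H9M, and Zfp704 falls in H9M knockouts.

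Genes that fell did so by less than 2-fold. Zfp704 held 44.5, 43.4 and 46.4 CPM in H9M controls and 25.1, 28.2 and 23.7 CPM in H9M knockouts, with no overlap. Its log2 fold change was −0.79 (SE 0.07, adjusted p 2e-11) in H9M. In MN1 the controls held 71.0, 73.1 and 72.2 CPM and the knockouts 71.4, 63.4 and 62.7 CPM, which overlap, and the log2 fold change was −0.13 (SE 0.06, adjusted p 0.049). That MN1 call was lost without any single library but MN1 knockout replicate 1, with an adjusted p of up to 0.2, and with DESeq2, size factors of its type in edgeR or library totals (up to 0.095). The effects differed by 0.66 (SE 0.09, adjusted p 7e-07).

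Zfp507 fell in H9M from 30.9, 33.4 and 32.7 CPM to 17.0, 19.1 and 19.1 CPM, a log2 fold change of −0.80 (SE 0.06, adjusted p 3.9e-13). In MN1 it fell from 32.6, 33.0 and 35.6 CPM to 29.5, 28.3 and 28.3 CPM, by −0.24 (SE 0.05, adjusted p 0.00029), with a difference between models of 0.56 (SE 0.08, adjusted p 1.1e-06). Its MN1 change with ATRA, −0.12 (SE 0.05, adjusted p 0.042), was lost without MN1 control with ATRA replicate 1 or 2 or MN1 knockout with ATRA replicate 2 or 3, at an adjusted p of up to 0.23. It was also lost with DESeq2, size factors of its type in edgeR, library totals, no filter on low counts or each model fitted alone (up to 0.17). Zfp629 fell by about the same amount in both models, from 24 ± 0.841 to 16.1 ± 1.55 CPM in H9M (−0.56, SE 0.07) and from 29.5 ± 0.541 to 20.9 ± 1.20 CPM in MN1 (−0.50, SE 0.06). In MN1, Zfp367 fell most, from 36.3, 31.2 and 28.5 CPM to 20.3, 21.0 and 20.5 CPM (−0.64, SE 0.08, adjusted p 1.8e-07). Zfp692 fell most in MN1 with ATRA, from 10.3 ± 0.301 CPM in controls to 5.86 ± 0.273 CPM in knockouts (−0.83, SE 0.10, adjusted p 8.7e-09).

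The models shared many calls. Between the comparisons without ATRA, which share no library, 68 zinc finger genes were called in the same direction in H9M and MN1, 38 higher and 30 lower, and 4 in opposite directions. The 68 are 59.1% of the H9M calls and 57.6% of the MN1 calls, against 66.4% and 62.7% for all genes that met the level rule. Across all 4 knockout comparisons, 33 of the 289 genes (11.4%) were higher each time and 17 (5.88%) lower each time, against 16.1% and 15.4% of all genes at that level. Zfp658, Zfp750, Zfp383, Zfp287, Zfp946, Zfp93, Zfp459, Zfp36, Zfp467 and Zfp57 were among the 33, and Zfp692, Zfp629, Zfp598, Zfp687, Zfp507 and Zfp827 among the 17; some of these calls were lost under other settings, given beside the genes. Zfp658, Zfp750, Zfp383 and Zfp459 met the level rule through groups other than the untreated controls, so their place among the 33 is a description. In none of the 4 were 88 genes (30.4%) called, against 12.8% of all genes at that level.

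**Figure D3:**
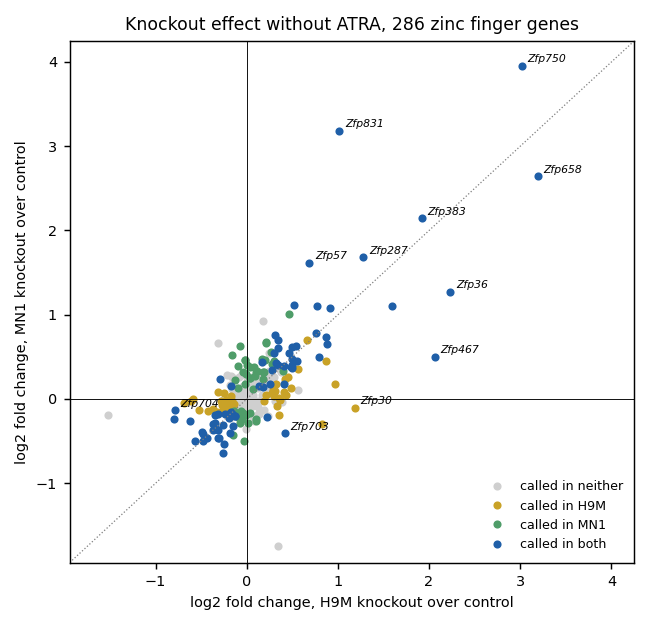
Log2 fold change of knockout over control without ATRA in H9M (x axis) and MN1 (y axis) for 286 zinc finger genes, coloured by the comparison in which a gene was called; the dotted line marks equal change. Zfp365, Zfp521 and Zfp711, with no count in H9M controls, are left out; Zfp750 and Zfp658 lie far up in both models, Zfp467 and Zfp36 lie below the line, and the height of Zfp831 rests on 2 counts over the MN1 controls.

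Zinc finger genes lie together on a few chromosomes. Coordinates on GRCm38.p6 were found for 288 of the 289 genes (not for Zfp125), and 76 of them (26.4%) lay on chromosome 7, 38 (13.2%) on chromosome 17 and 28 (9.72%) on chromosome 13, against 7.75%, 5.12% and 3.75% of all genes at that level. With starts at most 500 kb apart counted as neighbours, 38 clusters of 2 or more genes held 185 of the 288.

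The largest cluster, at chr17:21008941-23564226, held 22 genes, with 11 called higher and 0 lower in H9M knockouts and 8 higher and 0 lower in MN1 knockouts. Among all genes at that level, 29.2% were higher and 30.3% lower in H9M and 31.4% and 31.6% in MN1, so the MN1 count of higher genes lay near the background. With ATRA these numbers were 13 and 0 in H9M, and 9 and 0 in MN1, against 30% and 29.2%, and 31% and 34.1%, of all genes at that level. Its median log2 fold change was 0.31 in H9M and 0.26 in MN1 without ATRA, beside medians near 0 for the 289. Zfp946 rose most, from 2.31, 2.59 and 1.96 CPM to 6.56, 7.22 and 6.85 CPM in H9M (1.60, SE 0.16, adjusted p 5.9e-10) and from 5.09, 3.49 and 4.39 CPM to 9.88, 9.38 and 8.63 CPM in MN1 (1.11, SE 0.13, adjusted p 2.3e-08). Zfp995 was higher in both models as well, from 3.06 ± 0.381 to 5.13 ± 1.06 CPM in H9M and from 3.01 ± 0.667 to 5.17 ± 0.502 CPM in MN1. Genes of such a cluster are close relatives, so reads may be split or shared between copies in the deposited counts. The share of reads that fit several copies was not analysed here.

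The next clusters by size were on chromosomes 13, 7 and 17. At chr13:67038594-67827000, 4 of 17 genes were higher and 0 lower in H9M and 9 higher and 0 lower in MN1, among them Zfp459 (from 1.63 ± 0.196 to 3.06 ± 0.276 CPM in H9M and from 0.824 ± 0.176 to 1.77 ± 0.217 CPM in MN1). The call of Zfp459 with ATRA in H9M was lost without H9M control with ATRA replicate 2 (adjusted p 0.065). At chr7:29768552-30169775, which holds Zfp383 and Zfp30, 8 of 13 were higher and 2 lower in H9M and 6 higher and 2 lower in MN1. At chr7:127233061-127885996, which holds Zfp629, 0 of 10 were higher and 5 lower in H9M and 2 higher and 4 lower in MN1. A second chromosome 17 cluster, at chr17:32765496-33631716, had 0 of 10 higher and 1 lower in each model. The differences between clusters were not tested, and each count stands against the shares of all genes at that level, 29.2% higher and 30.3% lower in H9M and 31.4% higher and 31.6% lower in MN1.

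**Figure D4:**
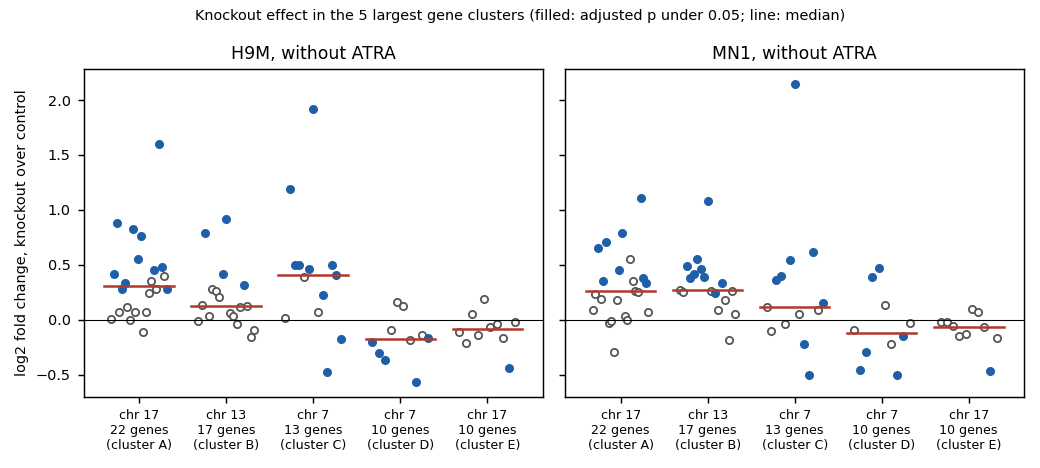
Log2 fold change of knockout over control without ATRA (y axis) for each gene of the 5 largest clusters in H9M (left) and MN1 (right); filled points passed the test and red lines are medians. Cluster A (22 genes) and cluster B (17 genes) hold no filled point below 0, while the median of cluster D (10 genes) is below 0 in both models.

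Promoter sequences were searched for short motifs. RefSeq promoters, 300 bases around the start on GRCm38.p6, were matched for 238 of the 289 genes. In the chromosome 17 cluster of 22, the E-box CACGTG, which reads the same on both strands, occurred in 8 of 22 promoters matched for 20 of the 22 genes (36.4% of promoters), against 7.56% of the promoters of the 289 genes, 10.2% of promoters of all genes at that level and 7.15% of all promoters of that length. The 8 windows of 46 bases around it, from 8 genes and 6 places, are shown to let their shared flanks be seen, 5′ to 3′ on the gene's strand, with the E-box in capitals.
Zfp758: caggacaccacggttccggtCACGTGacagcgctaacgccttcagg
Zfp943: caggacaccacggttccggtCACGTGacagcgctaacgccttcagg
Zfp942: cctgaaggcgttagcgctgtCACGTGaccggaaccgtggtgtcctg
Zfp944: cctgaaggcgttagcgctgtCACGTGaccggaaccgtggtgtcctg
Zfp946: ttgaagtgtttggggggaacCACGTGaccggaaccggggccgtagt
Zfp820: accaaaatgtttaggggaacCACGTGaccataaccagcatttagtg
Zfp947: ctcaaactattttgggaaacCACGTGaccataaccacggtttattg
Zfp994: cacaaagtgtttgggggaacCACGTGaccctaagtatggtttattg

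The windows of Zfp758, Zfp942, Zfp943 and Zfp944 are the same letters once strand is taken into account, at 2 places. Each place lies between a pair of genes that start in opposite directions: Zfp942 and Zfp943, with starts 95 bases apart at chr17:21962493-21962538, and Zfp944 and Zfp758, with starts 63 bases apart at chr17:22361404-22361449. The remaining 4 windows, of Zfp946, Zfp820, Zfp947 and Zfp994, share the run AACCACGTGACC around the E-box. Of the 8 genes with the motif, 3 were higher and 0 lower in H9M knockouts and 2 higher and 0 lower in MN1 knockouts. Of the 12 genes of the cluster with a promoter that lacks it, 8 were higher in H9M and 5 in MN1, and 0 were lower. The Zfp820 level was 4.84 ± 0.323 CPM in H9M controls and 7.03 ± 0.751 CPM in knockouts, while Zfp942 held 11.5 ± 3.00 and 10.5 ± 1.90 CPM. Rises in the cluster therefore occurred with and without the motif. The motif GAGGAAGT, a form of the site of the myeloid factor PU.1, was in 3 of the 22 promoters of the cluster (13.6%), 3 of 36 promoters of the genes higher in all 4 knockout comparisons (8.33%), 3.44% of the promoters of the 289 genes and 3.2% of all (both strands searched).

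ATRA moved fewer of the zinc finger genes than the knockout did. In H9M controls 19 genes were higher and 39 lower with ATRA, against 12.9% and 12.3% of all genes tested. This split depended on scaling: it was 24 higher and 32 lower with DESeq2-type size factors in edgeR and 13 and 56 with library totals alone. The 39 became 22 without H9M control replicate 1 and 19 without H9M control with ATRA replicate 2. In H9M knockouts 30 were higher and 24 lower, against 13.9% and 15.4%. The 24 became 14 without H9M knockout replicate 1 and 12 without H9M knockout with ATRA replicate 3. Kdm1a also differed between these H9M knockouts, as given above, and its part in these counts was not tested. In MN1 controls 26 were higher and 14 lower, against 11.4% and 10.4%. In MN1 knockouts 21 were higher and 13 lower, against 8.42% and 10.4%. Markers moved with ATRA too. In H9M controls progenitor markers summed to 12562 to 13019 CPM without ATRA and 6909 to 7260 CPM with it. Neutrophil markers there were at 75.4 to 80.4 CPM without and 39.9 to 44.7 CPM with ATRA, and monocyte markers at 34.6 to 40.5 CPM without and 78.2 to 81.6 CPM with it. Of the 5 monocyte and macrophage markers, 2 were called higher and 1 lower there. In H9M knockouts they summed to 739 to 757 CPM without and 741 to 766 CPM with ATRA, with 1 called higher and 2 lower. In MN1 controls progenitor markers were at 4059 to 4201 CPM without and 3288 to 3343 CPM with ATRA, and monocyte markers at 62.4 to 69.3 CPM without and 110 to 141 CPM with it. Their part in the ATRA results was not tested.

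The MN1 counts under ATRA also rested on single libraries. In MN1 controls the 26 fell to between 15 and 17 without any of 5 of the 6 libraries (control replicates 2 and 3 and the 3 with ATRA), and the 14 to 7 without control replicate 1 or control with ATRA replicate 1. In MN1 knockouts the 13 fell to 5 without knockout replicate 2, 7 without knockout replicate 3, 4 without knockout with ATRA replicate 2 and 8 without knockout with ATRA replicate 3. The split of 21 to 13 was 27 to 8 with DESeq2-type size factors and 33 to 5 with library totals. No zinc finger gene was lower in all 4 ATRA comparisons, against 1.75% of all genes at that level. Higher in all of them were 4 genes (1.38%, against 3.31%): Zfp971, Zfp827, Zfp395 and Zfp217. The call of Zfp395 in H9M controls (0.14, SE 0.05, adjusted p 0.037) was lost without any single library but H9M control with ATRA replicate 2 (up to 0.18), and with library totals or no filter on low counts (up to 0.13).

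Zfp971 was the zinc finger gene with the largest called rise with ATRA in both kinds of MN1 cells and in H9M knockouts. It rose from 10.8, 8.20 and 10.1 CPM to 13.9, 14 and 15.8 CPM in H9M controls, and from 9.69, 9.50 and 8.75 CPM to 15.4, 15.2 and 14.6 CPM in H9M knockouts. In MN1 it rose from 6.07, 5.59 and 5.90 CPM to 10.3, 10.2 and 9.93 CPM in controls, and from 5.64, 4.61 and 5.40 CPM to 10.0, 9.72 and 9.33 CPM in knockouts. No library with ATRA overlapped its untreated group. The 4 log2 fold changes were 0.63 (SE 0.08), 0.72 (SE 0.09), 0.77 (SE 0.09) and 0.85 (SE 0.10), with adjusted p values of 1.1e-06, 6.9e-08, 1.7e-07 and 1e-07. The knockout itself made no call: −0.04 (SE 0.09, adjusted p 0.73) in H9M and −0.17 (SE 0.11, adjusted p 0.19) in MN1.

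The promoter of Zfp971, at chr2:178023034-178023333 on the plus strand, is shown because this gene rose in all 4 ATRA comparisons. AGGTCA, the core of a retinoic acid receptor site, is in capitals; it occurs once here, and in 13.1% of the promoters of the 289 genes and 16.3% of all promoters on either strand.
Zfp971: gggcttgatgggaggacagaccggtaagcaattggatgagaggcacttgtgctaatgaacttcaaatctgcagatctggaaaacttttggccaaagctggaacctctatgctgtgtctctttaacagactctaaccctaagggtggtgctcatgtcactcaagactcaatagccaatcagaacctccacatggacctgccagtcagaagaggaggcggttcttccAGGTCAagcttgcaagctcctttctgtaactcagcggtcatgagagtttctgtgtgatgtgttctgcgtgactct

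Zfp827, a factor known at telomeres kept without telomerase, rose with ATRA and fell with the knockout, in comparisons that share the untreated controls. With ATRA its log2 fold changes were 0.32 (SE 0.08) in H9M controls, 0.70 (SE 0.09) in H9M knockouts, 0.36 (SE 0.06) in MN1 controls and 0.48 (SE 0.06) in MN1 knockouts. The level went from 34.3, 35.3 and 33.6 CPM to 47.4, 44.0 and 43.6 CPM in MN1 controls and from 9.41, 9.87 and 10.3 CPM to 11.6, 12.3 and 12.2 CPM in H9M controls. Without ATRA the knockout lowered it by −0.62 (SE 0.09) in H9M and −0.26 (SE 0.06) in MN1. Its lower level in MN1 knockouts with ATRA (−0.14, SE 0.06, adjusted p 0.032) was lost without MN1 control with ATRA replicate 1 or knockout with ATRA replicate 1 or 3 (up to 0.18) and with DESeq2, size factors of its type in edgeR or library totals (up to 0.12), and that in H9M with ATRA (−0.24, SE 0.08) without H9M knockout with ATRA replicate 1 (0.072).

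Zfp53, of the chromosome 17 cluster, rose with ATRA in MN1 controls from 12.1, 12.5 and 11.9 CPM to 19.96, 19.9 and 21.3 CPM (0.72, SE 0.07, adjusted p 8.2e-09). In H9M controls it held 16.9, 16.6 and 14.2 CPM without and 18.1, 15.2 and 16.0 CPM with ATRA, which overlap (0.09, SE 0.08, adjusted p 0.43). The ATRA effect was larger in MN1 by 0.63 (SE 0.11, adjusted p 7.1e-05).

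**Figure D5:**
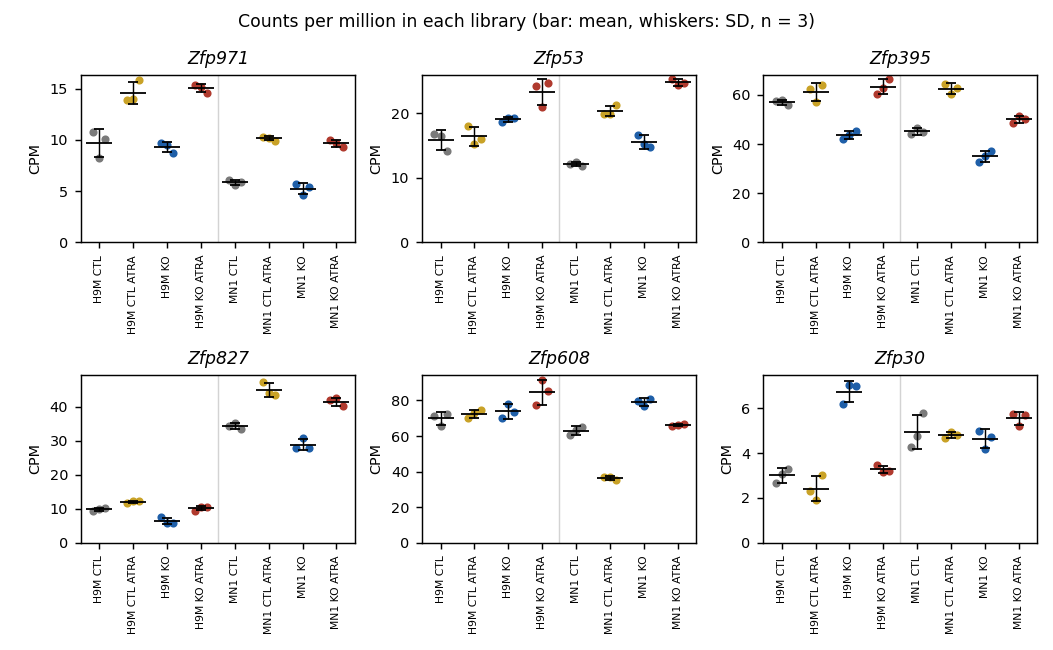
CPM in each of the 24 libraries for 6 zinc finger genes, by group (x axis) with points for libraries, a bar for the mean and whiskers for the SD (n = 3); each panel starts at 0. Zfp971 is higher with ATRA in each pair of groups, Zfp608 is at 35.2 to 36.9 CPM in MN1 controls with ATRA, below its other 21 libraries, and Zfp30 is high in H9M knockouts without ATRA at 6.20 to 7.06 CPM.

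A few genes answered to ATRA and knockout together. Zfp608, a regulator of Rag gene expression in thymocytes, fell with ATRA in MN1 controls from 60.4, 63.5 and 65.3 CPM to 36.9, 36.9 and 35.2 CPM (−0.82, SE 0.05, adjusted p 5.5e-13). In MN1 knockouts it fell less, from 79.9, 76.8 and 80.6 CPM to 65.7, 66.1 and 66.5 CPM (−0.30, SE 0.05), and the difference of these effects was 0.52 (SE 0.07, adjusted p 3.8e-05). In H9M controls it did not fall (0.09, SE 0.05, adjusted p 0.21), and the ATRA effects of the models differed by −0.91 (SE 0.07, adjusted p 1.6e-10).

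Zfp30, linked to neutrophil recruitment in the mouse airway, rose in H9M knockouts from 2.66, 3.05 and 3.30 CPM to 6.20, 7.06 and 7.00 CPM (1.19, SE 0.13, adjusted p 4e-09). With ATRA the knockouts held 3.46, 3.17 and 3.21 CPM and the controls 2.31, 1.91 and 3.04 CPM (0.44, SE 0.15, adjusted p 0.017), a call lost without H9M control with ATRA replicate 1 or 2 or knockout with ATRA replicate 1 (up to 0.13). The interaction of knockout and ATRA in H9M was −0.75 (SE 0.20, adjusted p 0.026). This call was lost without any of 6 of 12 libraries (up to 0.15), and with each model fitted alone. H9M knockouts with ATRA also held more Kdm1a than those without, as given above, and the part of that in the result was not tested. In MN1 the knockout effect on Zfp30 was −0.10 (SE 0.12, adjusted p 0.51), and the models differed by −1.29 (SE 0.18, adjusted p 1.1e-06).

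Over the family, the test of the interaction called 4 genes higher and 2 lower in H9M, against 2.25% and 2.79% of all genes tested, and 2 higher and 1 lower in MN1, against 1.09% and 1.68%. With any single library left out, these counts ran from 1 to 5 and 0 to 2 in H9M and from 1 to 3 and 0 to 1 in MN1, and with library totals alone they were 6 and 1, and 2 and 0. H9M knockouts with ATRA held more Kdm1a than those without, as given above, and the part of that in the H9M counts was not tested. The knockout effect differed between models in 55 genes, 31 more positive in MN1 and 24 more positive in H9M, against 14.2% and 14.2% of all genes tested. The ATRA effect in controls differed in 27, with 17 more positive and 10 more negative in MN1, against 6.64% and 7.15%; library totals alone made this split 34 to 7. In ATRA-treated controls only 6 zinc finger genes were called in the same direction in both models and 4 in opposite directions, 10.3% of the 58 H9M calls and 15% of the 40 MN1 calls for the 6, against 30.6% and 35.8% of the calls of all genes at that level.

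Untreated controls of the 2 models differed by 2-fold or more in a smaller share of zinc finger genes than of all genes. Of 277 zinc finger genes with 2 CPM or more in an untreated control group, 20 (7.22%) were 2-fold or more higher in MN1 and 15 (5.42%) in H9M, against 10.5% and 11.1% of all genes at that level. Zfp521, a cofactor of immature blood cells, held 95, 95.5 and 92.6 CPM in MN1 controls and had no count in any of the 12 H9M libraries. Against a floor of 3 counts over the H9M control group its ratio was 2504, with a lower 95% limit of 2036. In MN1 knockouts it held 185, 184 and 185 CPM, a log2 fold change of 0.97 (SE 0.04, adjusted p 1.4e-15). Zfp503, a corepressor of the NET family, stood at 458 ± 7.36 CPM in MN1 and 6.48 ± 0.388 CPM in H9M controls, 70.7-fold apart. Its relative Zfp703 stood at 457 ± 7.64 and 65.6 ± 2.01 CPM, 6.96-fold apart.

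Zfp703 moved in opposite directions in the 2 models. H9M controls held 64.7, 68.0 and 64.3 CPM and knockouts 85.5, 85.9 and 88.6 CPM (0.42, SE 0.05, adjusted p 5.3e-09). MN1 controls held 464, 458 and 449 CPM and knockouts 348, 341 and 347 CPM (−0.41, SE 0.04, adjusted p 5.8e-10). Neither pair overlapped, and the effects differed by −0.82 (SE 0.06, adjusted p 4e-12). ATRA raised it in H9M controls (0.30, SE 0.05, adjusted p 7.7e-06), and in MN1 controls the change was −0.10 (SE 0.04, adjusted p 0.076).

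Lists of genes by known function are given next. They were chosen with earlier results of these data known, so their counts are descriptions. Of all genes tested, 26.1% were higher and 25.4% lower in H9M knockouts without ATRA, and 28.7% and 26.3% in MN1 knockouts. Of 6 genes that bind RNA, 4 were higher and 1 lower in knockouts of each model without ATRA: Zfp36, Zfp106, Zfp326 and Zfp638 were higher and Zfp598 lower. The call of Zfp638 was lost in H9M without control replicate 2 or 3 or knockout replicate 1 or 2 (adjusted p up to 0.15) and with library totals (0.055), and in MN1 without control replicate 2 or knockout replicate 1 or 3 (up to 0.071). That of Zfp326 in MN1 was lost without control replicate 2 (0.05). Zfp598, the ubiquitin ligase that marks collided ribosomes, fell from 65.8, 68.7 and 70.1 CPM to 55.5, 51.2 and 55.8 CPM in H9M (−0.32, SE 0.05) and from 89.3, 91.8 and 95.3 CPM to 71.0, 69.5 and 73.5 CPM in MN1 (−0.37, SE 0.05).

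Of 3 measured partners of LSD1, CoREST or CtBP, Zfp516 and Zfp217 were higher in all 4 knockout comparisons. The third, Zfp219, was lower in H9M knockouts without ATRA (−0.22, adjusted p 0.00081) and was called in none of the other 3. Zfp516, which acts in brown fat, rose from 74.3, 73.7 and 76.6 CPM to 103, 112 and 103 CPM in H9M (0.52, SE 0.05) and from 24.9, 26.4 and 23.7 CPM to 54.6, 54.7 and 53.6 CPM in MN1 (1.12, SE 0.05). The MN1 effect was larger by 0.60 (SE 0.07, adjusted p 7.3e-08). Zfp217, a breast cancer oncogene product, rose from 91.6 ± 0.273 to 115 ± 3.15 CPM in H9M (0.34, SE 0.04) and from 70.9 ± 2.67 to 108 ± 1.16 CPM in MN1 (0.60, SE 0.04), also more in MN1 (0.26, SE 0.05, adjusted p 0.00032). The ATRA calls of Zfp217 in H9M were lost without control with ATRA replicate 3 in controls (0.056) and without knockout replicate 3 or knockout with ATRA replicate 2 or 3 in knockouts (up to 0.13), and with no filter on low counts (0.077 and 0.092).

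Of 5 measured repressors of imprinted or retroviral sequences, 2 were higher and 0 lower in H9M knockouts without ATRA, against 26.1% and 25.4% of all genes tested. In MN1 knockouts without ATRA 2 were higher and 1 lower, against 28.7% and 26.3%. Zfp568 was higher in H9M and lower in MN1. Zfp809 was higher in MN1, a call lost without control replicate 2 or knockout replicate 2 or 3. Zfp57, higher in both models, keeps methylation at imprinted loci. It rose from 7.67, 7.84 and 8.36 CPM to 12.9, 12.1 and 13.1 CPM in H9M (0.69, SE 0.09, adjusted p 1.5e-07) and from 1.62, 1.71 and 1.18 CPM to 4.92, 4.69 and 4.24 CPM in MN1 (1.61, SE 0.15, adjusted p 3.2e-11), more in MN1 by 0.93 (SE 0.17, adjusted p 7.1e-05). ATRA raised it in H9M controls (0.49, SE 0.09, adjusted p 0.00013), while in MN1 controls the change was −0.35 (SE 0.18, adjusted p 0.18), a difference between models of −0.84 (SE 0.20, adjusted p 0.0046). Zfp687, a component of a ZMYND8 complex, was lower in all 4 knockout comparisons, by −0.26 (SE 0.04) in H9M and −0.31 (SE 0.04) in MN1 without ATRA. Of 8 broad activators and promoter factors, such as Zfp143 and Zfp281, 0 were higher and 1 was lower in H9M knockouts without ATRA, and 0 were higher and 2 lower in MN1 knockouts without ATRA. With ATRA, 0 were higher and 3 lower in each model. Of all genes tested, 26.7% were higher and 24.4% lower in H9M knockouts with ATRA, and 28.6% and 28.6% in MN1.

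Cofactors of KRAB proteins were more often called lower than higher. Of 22 such genes, 16 were lower and 2 higher in H9M knockouts and 12 lower and 1 higher in MN1 knockouts without ATRA, against 30.3% lower and 29.2% higher, and 31.6% and 31.4%, of all genes at that level. With ATRA, 15 were lower and 2 higher in H9M and 11 lower and 3 higher in MN1. The shares of all genes at that level were then 29.2% lower and 30% higher in H9M, and 34.1% and 31% in MN1. Without ATRA the list had median log2 fold changes of −0.151 and −0.105. Trim28, which bridges KRAB domains to silencing enzymes, fell from 565 ± 16.6 to 458 ± 8.68 CPM in H9M (−0.29) and from 884 ± 15.9 to 733 ± 3.90 CPM in MN1 (−0.28). Setdb1, the H3K9 methyltransferase, was lower in H9M (−0.32) and did not pass in MN1 (−0.05, adjusted p 0.278) without ATRA, a difference of 0.27 (adjusted p 0.000178). With ATRA it was lower in MN1 knockouts as well (−0.11, adjusted p 0.0115, edgeR). Uhrf1 (−0.42, SE 0.04, in H9M and −0.51, SE 0.04, in MN1) and Dnmt1 (−0.34, SE 0.04, and −0.43, SE 0.04) were lower in both models without ATRA. In H9M the Dnmt1 change was close to those of Setdb1 (SE 0.04) and Trim28 (SE 0.03). Differences between these genes were not tested. Chd3, a helicase of the NuRD complex, rose by 0.44 in H9M and 0.96 in MN1.

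Across the 8 group means, the gene whose pattern was most like Zfp658 among 11788 genes was Txndc16 (Pearson r 0.9955, over 8 groups), and Anxa6 was most like Zfp287 (0.9977) and Khnyn most like Zfp971 (0.9704). These likenesses rest on 8 means that share libraries and depth, and describe them only.

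At the promoters of these genes, H3K4me2, a mark that LSD1 can remove, was read in 1 library per condition, so there is no replicate and no test. After keeping reads of mapping quality 10 or more, 8949072 reads were left for GFI1-WT and 9538627 for GFI-KD. Of 238 zinc finger genes with a promoter, 234 had 20 reads or more within 1 kb of the start, with medians of 24.8 and 23.2 RPM (reads-per-million of the reads kept) and a median log2 ratio of GFI-KD over GFI1-WT of −0.06, against −0.05 for all genes at the level rule. A level 2-fold or more higher in GFI-KD was seen at 1 of them (0.427%) and a level 2-fold or more lower at 0, against 2.51% and 0.708% of promoters of all genes at that level. The 1 gene was Zfp503, with 76 reads in GFI1-WT and 185 in GFI-KD, or 8.49 and 19.4 RPM. The promoter of Zfp658 held 220 and 321 reads (a ratio of RPM of 1.37), that of Zfp287 117 and 212 (1.70), that of Zfp365 134 and 221 (1.55), that of Zfp36 346 and 285 (0.773) and that of Zfp971 70 and 74 reads. These cells are normal marrow progenitors of other mice, not the leukaemia cells, and GFI1 rather than Lsd1 differs between them by label.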

How the data were processed

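The authors deposited raw read counts per Ensembl gene for 24 RNA libraries, from stranded total RNA sequenced as paired ends per the labels' protocols. STAR 2.5.3 and the build mm10 are named in the submitters' processing notes. For the read counter and its strand setting, the sources used here name none. The 2 H3K4me2 libraries were deposited as aligned reads (BWA, mm10) whose score, per the values, is the mapping quality; those of 10 or more were counted within 1 kb of each RefSeq start.

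Of 48795 gene entries, 48349 matched a symbol by Ensembl ID and 446 did not. Levels are CPM over the library total, as mean ± SD. Differences were tested with edgeR 4.0.16 in R 4.3.3 (TMM factors, low-count filter filterByExpr, quasi-likelihood test, 1 mean per group over all 24 libraries, 16 residual degrees of freedom, Benjamini-Hochberg adjustment over all 14663 genes tested). Samples with the same replicate number did not deviate together, so no block entered the test. The step was tested on simulated data. The genes named are the 5 called genes with the largest change in each direction per comparison (2 CPM or more in a group and no overlap between the libraries of the groups) and the members of the function lists; others were named after their values were seen. The genes and lists were chosen with earlier results of these data known. Alternatives were DESeq2 1.42.0, size factors of the DESeq2 type in edgeR, library totals alone, other count filters, each model fitted alone, a replicate block and each library left out. Counting depth limits genes near 2 CPM, which rest on few counts per library.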

Additional observations from a re-analysis of the deposited data

Results flagged for a closer look

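These differences between groups passed edgeR's test of the difference itself (Benjamini-Hochberg adjusted p under 0.05), with 3 libraries per group. The knockout effect in H9M cells differed with and without ATRA, as log2 with ATRA minus without, by 0.49 for Zfp111, 0.42 for Zfp395, 0.32 for Zfp275, −0.75 for Zfp30 and −0.56 for Zfp658. Of these, Zfp395 (adjusted p 0.00012) was called without each of the 12 libraries in turn, while Zfp111 (0.041), Zfp275 (0.041), Zfp30 (0.026) and Zfp658 (0.048) were lost without any of 10, 9, 6 and 10 of them, at adjusted p values of up to 0.15, 0.14, 0.15 and 0.19. Fitting each model alone also lost Zfp111, Zfp275, Zfp30 and Zfp658. The replicate block lost Zfp111 and Zfp658, and no filter on low counts lost Zfp275 and Zfp658. DESeq2 and library totals lost Zfp658 too. H9M knockouts with ATRA also held more Kdm1a than those without, as given above, and the part of that in these differences was not tested. In MN1 cells the difference of knockout effects, with ATRA minus without, was 0.52 for Zfp608, 0.22 for Zfp703 and −0.26 for Zfp523. Zfp608 was called without each library in turn, and Zfp703 and Zfp523 were lost without any of 6 and 9 of 12 libraries, at up to 0.13 and 0.16. Zfp523 was also lost with DESeq2, size factors of its type in edgeR, library totals, no filter on low counts or each model fitted alone.

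The knockout effect without ATRA differed between the models, as MN1 minus H9M, by 2.17 for Zfp831, 0.93 for Zfp57, 0.70 for Zfp462, −1.56 for Zfp467, −1.29 for Zfp30 and −1.12 for Zfp760. The value of Zfp831 rests on 2 counts over the MN1 controls and was lost without any of 8 of 12 libraries (up to 0.17), and that of Zfp760, at 0.638 CPM in MN1 controls, without any of 6 (up to 0.09). The Zfp831 difference was also lost with DESeq2 and with no filter on low counts. The ATRA effect in controls differed, as MN1 minus H9M, by 0.91 for Zfp93, 0.80 for Zfp950, 0.79 for Zfp273, −0.91 for Zfp608, −0.84 for Zfp57 and −0.40 for Zfp703, and these 6 were called without each library in turn.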

How the results depend on the processing

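Of 317 results for single zinc finger genes, 238 kept their direction and their side of the threshold under every alternative, and none reversed. Counts of called genes in the 4 knockout comparisons stayed within 1.5 times under every alternative. With each model fitted alone, 25 genes were lower with ATRA in H9M controls instead of 39. DESeq2, size factors of its type in edgeR and library totals gave 7, 8 and 5 genes lower with ATRA in MN1 knockouts instead of 13, and library totals gave 33 higher instead of 21. Library totals gave 34 genes instead of 17 with a more positive ATRA effect in MN1. For genes with a lower knockout effect under ATRA, the 2 in H9M became 1 under DESeq2, each model alone, library totals and the replicate block, and the 1 in MN1 became 0 under DESeq2, its size factors in edgeR, each model alone and library totals.

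With each library left out in turn, genes lower with ATRA ranged from 19 to 43 in H9M controls, 12 to 22 in H9M knockouts, 7 to 18 in MN1 controls and 4 to 14 in MN1 knockouts. Genes higher with ATRA in MN1 controls ranged from 15 to 18. The interaction counts ranged from 1 to 5 higher and 0 to 2 lower in H9M, and from 1 to 3 higher and 0 to 1 lower in MN1. The cause of these moves was not tested. The replicate numbers did not pair the samples: over 36 pairs of samples with the same number the correlation of deviations had a median of −0.002 and 0 pairs were over 0.1, and in 13 of the 36 pairs a sample correlated best with its own number. A fit with the replicate block changed no other count of calls by over 1.5 times. No scaling moved the median of all genes by 0.1 log2. Small changes of genes with few counts were not detectable in part at this depth.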
